A study of Mus musculus with 34 samples.

Results

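The genes described here encode the enzymes and regulators that make cholesterol and fatty acids. They are 34 named genes, chosen by symbol, of the 14086 genes in a table of normalized RNA-seq counts from mouse liver. The sterol arm has 21 genes, from Hmgcs1 to Stard4, and the fatty acid arm has 13, from Srebf1 to Pnpla3. All 21 sterol genes and 12 of the 13 fatty acid genes had a mean normalized count of at least 10 over the 18 libraries and could be tested. Pnpla3 did not, and 11 of the 34 were also among the 1659 genes of a second table that holds z-scores.

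The study asked what sets apart subtypes of liver tumour that arise with β-catenin isoforms lacking an exon. β-catenin, encoded by Ctnnb1, carries the Wnt signal to the nucleus. Per the labels, genes were delivered by hydrodynamic injection, in which a large volume given quickly brings plasmids into hepatocytes, and total RNA came from frozen liver tumours. The normalized counts cover 6 groups: wild type liver (2 libraries), liver with the skip 1 isoform alone (3), liver with the skip 2 isoform alone (2), skip 1 isoform induced (5), skip 2 isoform induced (2) and ΔN90-β-catenin induced (4), an N-terminally truncated form. The first 3 groups are called non-induced livers below (7 libraries) and the others induced samples (11 libraries). The z-scores used here cover subtype A (4 libraries), subtype B (9) and sgActin and YAPS127A (3), a guide against actin with an activated form of YAP. The labels give no age, sex or strain, no promoter for the transgenes, and no ΔN90 group without induction. Nothing in them ties a library to an animal of its own, so the p-values cover only the spread among these libraries, part of which may be technical. In all 4 skip2 libraries 1 label field reads skip 2 and another skip 1, and the grouping follows the first, the source name.

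Cholesterol is built from acetyl-CoA through mevalonate and squalene to lanosterol, and a second series of enzymes then turns lanosterol into cholesterol. Fatty acids are built from citrate-derived acetyl-CoA by acetyl-CoA carboxylase and fatty acid synthase, with NADPH as the reductant, and are then elongated and desaturated. In liver the transcription factor SREBP-2 (Srebf2) mainly drives the sterol genes and SREBP-1 (Srebf1) mainly the fatty acid genes. Both are held in the endoplasmic reticulum by the Insig proteins when sterols are plentiful.

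Estimated reads ran from 361768 to 933196 per library, and the skip2 induced libraries were the deepest, at 933196 and 815418. Replicates of a group correlated across genes with r between 0.839 and 0.934, where genes are not independent replicates. Ctnnb1 stood at 804 ± 268 (SD, n = 5) normalized counts with skip1 induction and at 451 ± 9.06 (SD, n = 2) with skip2 induction. In ΔN90 induced samples it was at 164 ± 27.8 (n = 4), against 146 ± 17.1 (n = 7) in non-induced livers, a difference that did not pass the test (0.15, limma adjusted p = 0.548). Of 10 hepatocyte marker genes, none was at 0 in every library of a group, and their summed level was 56190 to 75630 in non-induced livers. It was 13860 to 49740 in skip1 induced, 29380 to 33480 in skip2 induced and 13990 to 21920 in ΔN90 induced samples. The 7 cholangiocyte markers in the table summed to 12.9 to 45.6 in non-induced livers and 124 to 716 in induced samples. Krt7 and Epcam were at 0 in both wild type libraries, Krt19 and Epcam in all skip1 alone libraries, and Krt19, Krt7 and Sox9 in both skip2 alone libraries. The 8 stellate cell and fibroblast markers summed to 149 to 236 in non-induced livers, 243 to 348 with skip1 induction, 393 to 444 with skip2 and 122 to 271 with ΔN90, and 3 of 6 tested were higher in each comparison with non-induced samples, while 1 was lower with skip2 and 2 with ΔN90. Of 8 macrophage markers tested 5 were higher with skip1, 1 with skip2 and 3 with ΔN90, where 1 was lower, and of 7 endothelial markers 3 were lower with ΔN90 and 4 were higher in skip1 than in ΔN90 induced samples. The part of these shifts in the results on the synthesis genes was not tested, and in bulk tissue fewer cells of a type and less RNA per cell cannot be told apart.

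Promoter sequence is shown for the gene with a match to the 9-letter sterol regulatory element searched for (Hmgcs1) and for the genes that passed the test in 3 comparisons of the count table (Lss, Tm7sf2, Ebp, Srebf2 and Me1), which were chosen after their values were seen. Each run is the 250 bases before the RefSeq start site on GRCm38.p6 (mm10), 5′ to 3′ along the gene. Capitals mark matches to TCACNCCA, the core of that element, with the following C where the 9 letters TCACNCCAC match, and to CCAAT, a box bound by the factor NF-Y, read on either strand (ATTGG is its reverse).
Hmgcs1, chr13:119690101-119690350, plus strand: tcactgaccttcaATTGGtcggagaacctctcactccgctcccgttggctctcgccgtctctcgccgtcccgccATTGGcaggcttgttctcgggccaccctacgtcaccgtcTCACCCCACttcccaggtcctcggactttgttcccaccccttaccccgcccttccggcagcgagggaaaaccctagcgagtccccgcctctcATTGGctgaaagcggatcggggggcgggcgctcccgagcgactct
Lss, chr10:76531355-76531604, plus strand: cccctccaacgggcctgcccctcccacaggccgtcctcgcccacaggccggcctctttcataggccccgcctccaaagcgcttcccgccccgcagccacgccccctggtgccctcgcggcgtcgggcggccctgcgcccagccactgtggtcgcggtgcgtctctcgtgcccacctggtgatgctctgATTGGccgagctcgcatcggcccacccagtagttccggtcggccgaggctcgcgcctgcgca
Tm7sf2, chr19:6067851-6068100, minus strand: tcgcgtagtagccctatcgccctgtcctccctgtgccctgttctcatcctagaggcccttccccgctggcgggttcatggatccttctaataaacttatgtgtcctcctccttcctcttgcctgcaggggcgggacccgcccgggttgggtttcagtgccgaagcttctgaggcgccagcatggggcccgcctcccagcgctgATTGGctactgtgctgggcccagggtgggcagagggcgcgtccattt
Ebp, chrX:8193513-8193762, minus strand: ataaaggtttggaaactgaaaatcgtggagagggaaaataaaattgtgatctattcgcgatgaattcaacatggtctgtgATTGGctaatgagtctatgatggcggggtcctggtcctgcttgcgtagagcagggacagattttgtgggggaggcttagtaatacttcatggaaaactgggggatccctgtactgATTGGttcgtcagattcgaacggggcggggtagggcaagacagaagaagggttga
Srebf2, chr15:82147019-82147268, plus strand: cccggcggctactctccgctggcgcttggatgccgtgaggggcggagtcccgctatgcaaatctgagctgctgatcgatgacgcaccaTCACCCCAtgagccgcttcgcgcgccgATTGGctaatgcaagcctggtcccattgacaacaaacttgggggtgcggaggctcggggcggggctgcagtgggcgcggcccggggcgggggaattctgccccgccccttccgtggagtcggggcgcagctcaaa
Me1, chr9:86695915-86696164, minus strand: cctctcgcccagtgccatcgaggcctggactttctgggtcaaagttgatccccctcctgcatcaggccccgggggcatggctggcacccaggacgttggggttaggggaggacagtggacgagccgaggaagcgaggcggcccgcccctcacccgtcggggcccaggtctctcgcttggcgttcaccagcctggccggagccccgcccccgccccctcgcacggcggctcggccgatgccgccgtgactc
RefSeq windows were found for 28 of the 34 genes, 34 windows in all, and not for Fdps, Fdft1, Sqle, Stard4, Scd1 and Fads1. TCACNCCAC, searched on both strands, was in 1 of the 34 windows (2.94%), that of Hmgcs1, and in 1.05% of all 32851 promoter windows of the same length. The 8-letter TCACNCCA, which lies within the 9-letter form, whose last letters can begin a CCAAT, and which was added after the sequences were seen, was in the windows of Hmgcs1, Msmo1 and Srebf2 (8.82% against 3.67% of all windows). CCAAT was in 16 of 20 sterol windows (80.0%) and 8 of 14 fatty acid windows (57.1%), against 33.8% of all windows. The Me1 window shown held no match, and the other Me1 window held 1 match to CCAAT. A match is a string of letters, not a measured binding site.

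Levels can be compared between genes only per length, here as the mean normalized count per kilobase of annotated exon. In wild type liver the highest levels per kilobase were those of Scd1 (380), the main liver stearoyl-CoA desaturase, and Thrsp (135), a lipogenic regulator whose 2 wild type libraries stood far apart at 541 and 51.5 normalized counts. Insig1 (74.4), Fads2 (60.7) and Sc5d (59.5) followed. Pnpla3, at 0.268 per kilobase, was lowest, and Srebf2 (4.07), Lss (4.50), Elovl6 (4.59) and Mvd (4.81) came next from below.

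**Figure D1:**
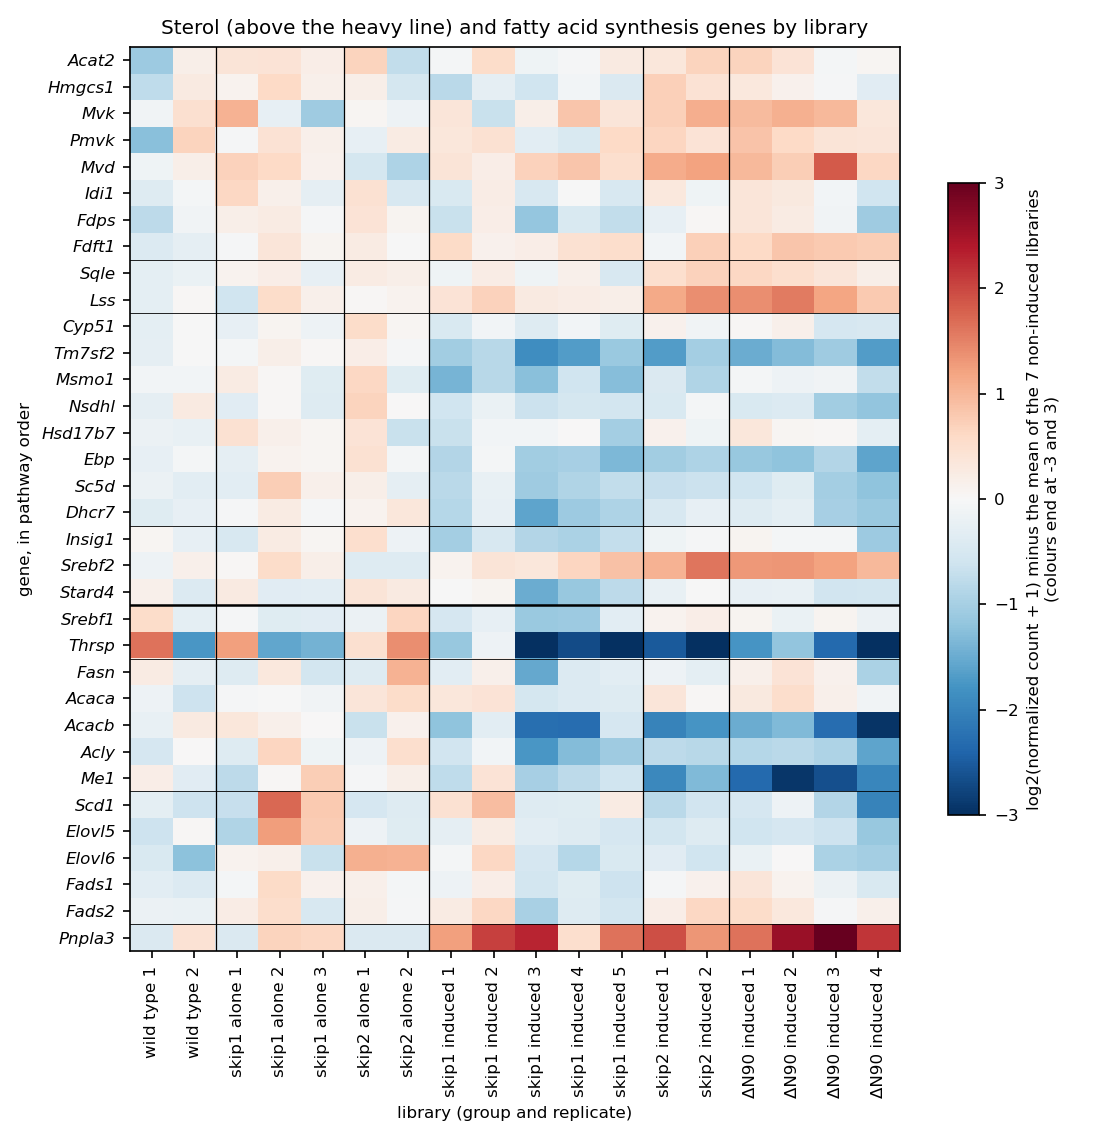
Each column is 1 of the 18 libraries and each row 1 of the 34 genes. Colour gives the log2(normalized count + 1) minus its mean over the 7 non-induced libraries, with colours ending at -3 and 3. The heavy line divides the sterol arm (above) from the fatty acid arm (below). Tm7sf2 and Ebp were below their non-induced mean in every induced library, and Lss and Srebf2 stood highest in the skip2 and ΔN90 induced libraries.

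The comparisons of induced with non-induced samples asked how tumours with each β-catenin form differ from liver without induction. Differences below are on the log2(normalized count + 1) scale, which understates the change of low genes, and a gene was taken to have changed where limma's adjusted p over all 6592 genes tested was under 0.05. In skip1 induced against skip1 alone samples no sterol gene rose and 6 of 21 fell, where 14.7% of all genes changed, 6.55% higher and 8.18% lower. In skip2 induced against skip2 alone samples 3 rose and 2 fell, where 14.9% of all genes changed, 6.52% higher and 8.42% lower. In ΔN90 induced samples against the non-induced livers (the mean of the 3 group means) 5 rose and 5 fell, where 37.5% of all genes changed, 17.6% higher and 19.9% lower. The median difference of the 21 genes was -0.41, 0.11 and 0.02, beside -0.02, -0.06 and 0.01 over all genes. These directions depend on the scaling: the induced libraries had lower totals of normalized counts, and scaling every library to the same total moved the median of all genes to 0.43, 0.52 and 0.53. The sterol splits were then 3 higher and 1 lower, 8 higher and 1 lower, and 11 higher and 2 lower, with medians of 0.06, 0.71 and 0.56. Under quantile normalization they were 1 and 3, 4 and 1, and 5 and 3, and under upper-quartile scaling, which moved the median of all genes to 0.11, 0.11 and 0.12, they were 0 and 5, 3 and 2, and 6 and 5. No member that had changed turned its direction under any alternative. Groups of 2 libraries can also fail to overlap by chance, and the share of all genes that did so was not counted. With skip2, Scd1 did so at a difference of -0.25 (limma adjusted p = 0.834).

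**Figure D2:**
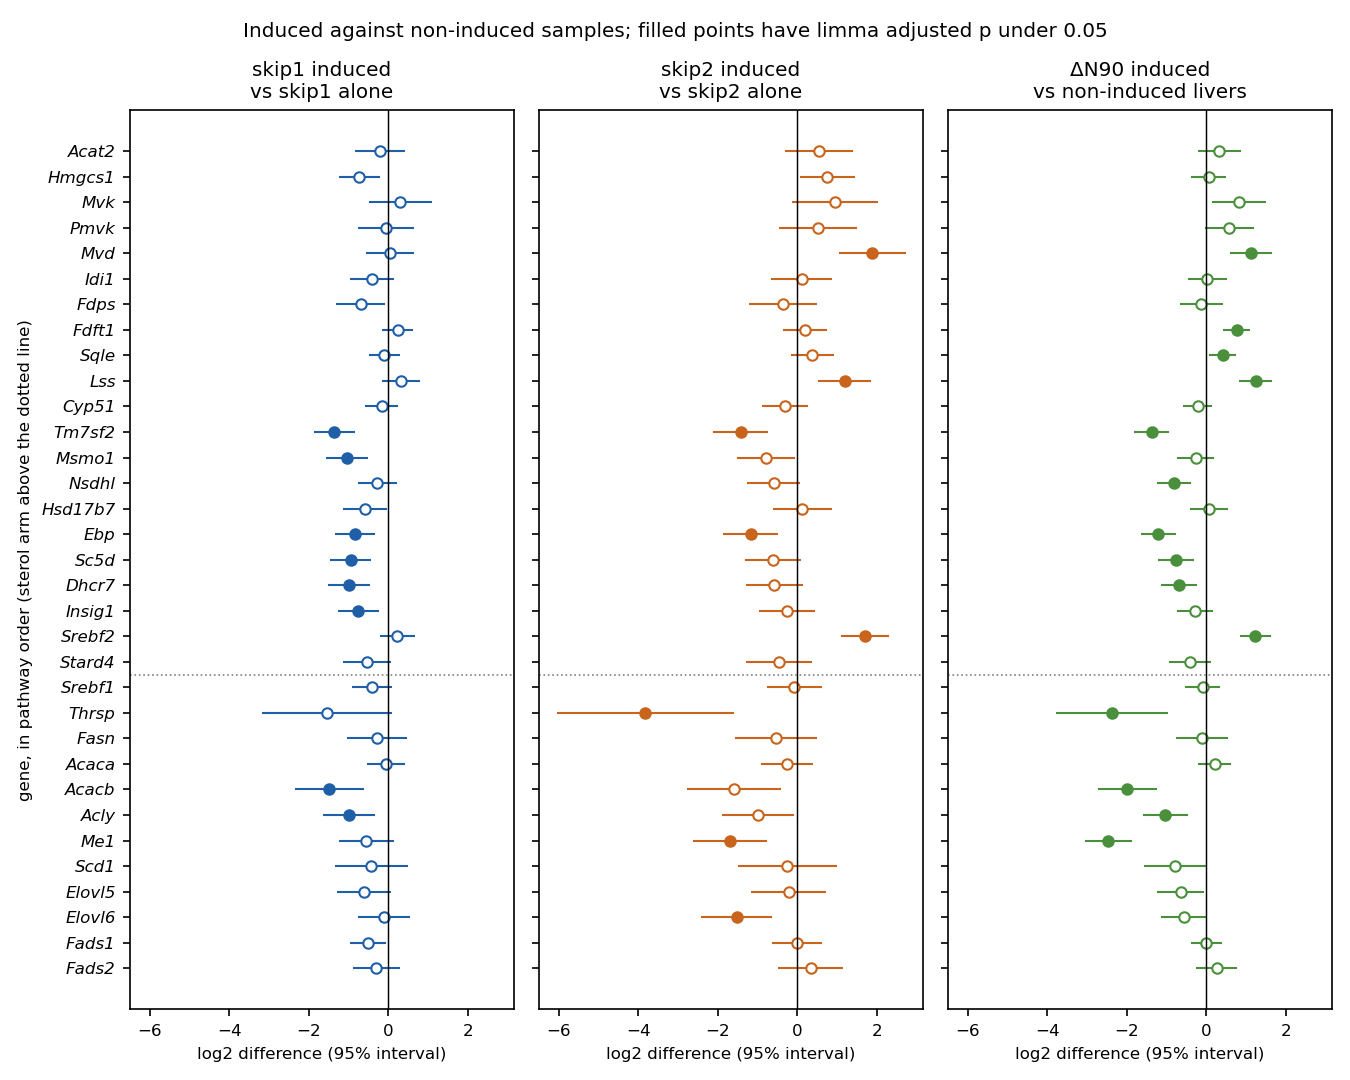
Points are log2 differences of the 33 tested genes with 95% intervals in the 3 comparisons of induced with non-induced samples. Filled points have a limma adjusted p under 0.05. Below the dotted line, in the fatty acid arm, every filled point lies left of 0, while in the sterol arm the filled points of the skip2 and ΔN90 comparisons lie on both sides.

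None of the enzymes from acetyl-CoA to squalene fell, where 8.18%, 8.42% and 19.9% of all genes fell with skip1, skip2 and ΔN90. Of these 8 genes none passed in the skip1 comparison, 1 rose with skip2 and 2 rose with ΔN90. Over all genes 6.55%, 6.52% and 17.6% rose, so with 8 genes these counts are near the background. Mvd encodes the decarboxylase that makes isopentenyl pyrophosphate. Its normalized counts were 5.78 and 4.12 with skip2 alone and 20.2 and 21.4 in skip2 induced samples, and 18.1, 15.3, 33.9 and 13.9 in ΔN90 induced samples. In skip1 induced samples they were 11.8, 10.2, 14.9, 16.2 and 12.8, and in skip1 alone 14.8, 13.8 and 9.59. The groups did not overlap for skip2 (difference 1.89, SE 0.40, adjusted p = 0.00296). They overlapped for ΔN90 (1.12, SE 0.25, adjusted p = 0.00153) and also for skip1 (0.05, 95% interval -0.56 to 0.66, not called). These are low counts. Mvd averaged 9.43 over the non-induced and 17.2 over the induced libraries, so it met the minimum mean of 10 only through the induced ones. A gene as low without induction that did not rise would not have been tested, so the rise of Mvd was favoured by the filter.

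Fdft1, squalene synthase, the first enzyme committed to sterols, stood at 235, 277, 266 and 258 in ΔN90 induced samples, above all 7 non-induced libraries (115.5 to 199.8). The difference was 0.77 (SE 0.17, adjusted p = 0.00102). In skip1 induced samples the differences of Fdft1 (0.24) and in skip2 induced samples (0.19) did not pass. Hmgcs1, the HMG-CoA synthase whose promoter carries the element shown above, was at 133, 189.5 and 139 with skip1 alone and at 70.2, 103, 81.2, 118 and 92.0 in skip1 induced samples. Those groups did not overlap, yet the difference of -0.73 (SE 0.25) missed the threshold at a limma adjusted p of 0.0502. The skip1 induced values did overlap those of wild type (72.7 and 148.6) and of skip2 alone (139 and 85.5). With skip2 it differed the other way, 0.76 (SE 0.34, adjusted p = 0.142), and with ΔN90 by 0.07. Acat2, Mvk and Pmvk, which act at the thiolase and mevalonate kinase steps, and Idi1 and Fdps, which make and join the isoprene units, passed in none of the 3 comparisons, with differences from -0.70 (Fdps, skip1) to 0.95 (Mvk, skip2).

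Sqle and Lss, the pair of enzymes that turn squalene into lanosterol, gave 0 changed genes with skip1 by limma, also at an unadjusted p under 0.05. With skip2 1 was higher and with ΔN90 2, beside 6.52% and 17.6% of all genes. A pair is too small to set against these shares. Lss, lanosterol synthase, was at 54.3 and 56.3 with skip2 alone and at 116 and 141 in skip2 induced samples. It was at 140, 158, 122 and 91.4 in ΔN90 induced samples, and at 34.5 to 77.1 over the 7 non-induced libraries. The induced groups stood clear of their controls, with differences of 1.19 (SE 0.32, adjusted p = 0.0147) for skip2 and 1.24 (SE 0.20, adjusted p = 5.78e-05) for ΔN90. In skip1 induced samples it was at 69.9, 86.0, 63.2, 61.4 and 59.6, overlapping skip1 alone at 34.5, 77.1 and 58.6 (0.32, not called). Sqle, squalene epoxidase, rose by 0.42 (SE 0.16, adjusted p = 0.0491) with ΔN90, where its groups overlapped. The call on Sqle was lost without any of 8 libraries: both wild type libraries, skip1 alone replicate 3, both skip2 alone libraries and ΔN90 induced replicates 1, 2 and 3 (0.35 to 0.43). With skip2, Lss lost its call without any of the 4 libraries compared (1.06 to 1.33) and with log2 depth as a covariate (0.69).

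Of the 8 enzymes that turn lanosterol into cholesterol none rose in any of the 3 comparisons, where 6.55%, 6.52% and 17.6% of all genes rose. With skip1 5 fell, with skip2 2 and with ΔN90 5, beside 8.18%, 8.42% and 19.9% of all genes. Of these calls, 1, 1 and 2 were kept under scaling to equal totals: Tm7sf2 in all 3 and Ebp with ΔN90. Tm7sf2, a sterol C14 reductase, stood between 46.4 and 64.7 in the 7 non-induced libraries. It was at 26.9, 31.4, 14.9, 17.1 and 25.6 in skip1 induced, 17.01 and 27.4 in skip2 induced and 19.7, 22.4, 26.3 and 16.9 in ΔN90 induced samples. Every induced library was below every non-induced library. The differences were -1.35 (SE 0.25, adjusted p = 0.000922), -1.42 (SE 0.34, adjusted p = 0.00616) and -1.38 (SE 0.21, adjusted p = 3.04e-05).

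Ebp, the sterol isomerase, was at 75.6 to 124.8 in non-induced livers. It was at 49.5, 87.0, 43.6, 45.1 and 35.1 in skip1 induced, 44.1 and 47.7 in skip2 induced and 40.9, 38.8, 48.9 and 29.8 in ΔN90 induced samples. Only skip1 induced replicate 2 reached the non-induced range among the 11 induced libraries. The differences were -0.84 (SE 0.24, adjusted p = 0.0237), -1.17 (SE 0.33, adjusted p = 0.0202) and -1.21 (SE 0.21, adjusted p = 0.000118).

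Sc5d and Dhcr7, the desaturase and reductase of the last steps, fell with skip1 (-0.94 and -0.995) and ΔN90 (-0.77 and -0.69). With ΔN90 both calls were lost under quantile normalization (-0.35 and -0.51), scaling to equal totals (-0.22 and -0.15), the depth covariate (-0.50 and -0.49) and against wild type only (-0.55 and -0.40). With skip1 both were lost under equal totals (-0.47 and -0.53), and that on Sc5d under quantile normalization (-0.51). With skip2 they differed by -0.62 and -0.58, which did not pass. Msmo1, a sterol C4 methyl oxidase, fell with skip1: it was at 75.6, 65.6 and 49.0 with skip1 alone and at 23.7, 35.1, 26.01, 41.5 and 25.6 in skip1 induced samples (-1.05, SE 0.25, adjusted p = 0.00794). Its differences were -0.79 with skip2 (SE 0.35, 2 libraries in each group) and -0.27 with ΔN90, neither of which passed. A fall with skip1 and not with skip2 is therefore not shown. Nsdhl, the C4 decarboxylase, fell with ΔN90 (-0.81, SE 0.21), a call lost under equal totals (-0.28) and with the depth covariate (-0.60). Cyp51, the lanosterol demethylase, and Hsd17b7, a C3 ketoreductase, passed in none, with differences from -0.59 to 0.13.

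Single libraries decided several of these calls. With skip1, the 6 sterol genes became 2 without skip1 alone replicate 2: Sc5d (-0.67) and Dhcr7 (-0.90) lost their calls, as did Ebp (-0.77) and Insig1 (-0.60). Ebp also lost its call without skip1 alone replicate 3 or skip1 induced replicate 3, 4 or 5 (-0.81 to -0.72). With skip2, the 5 sterol genes became 2 without skip2 alone replicate 1 or skip2 induced replicate 1, and 3 without skip2 induced replicate 2. Tm7sf2 lost its call without skip2 alone replicate 1 (-1.31) or skip2 induced replicate 1 (-1.09), and Ebp without either of these (-0.92 and -1.12) or skip2 induced replicate 2 (-1.23). With ΔN90, Dhcr7 lost its call without ΔN90 induced replicate 3 (-0.59) or 4 (-0.55). The calls on Tm7sf2 and Msmo1 with skip1, on Mvd and Srebf2 with skip2, and on Mvd, Fdft1, Lss, Tm7sf2, Nsdhl, Ebp, Sc5d and Srebf2 with ΔN90 were kept without any single library.

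Among the sterol regulators, Srebf2 rose with skip2 and ΔN90. It was at 21.96 and 21.97 with skip2 alone and at 60.2 and 89.95 in skip2 induced samples (1.70, SE 0.29, adjusted p = 0.000423). It was at 72.4, 73.5, 67.7 and 57.6 in ΔN90 induced samples, above all non-induced libraries (21.96 to 42.6), with a difference of 1.24 (SE 0.18, adjusted p = 1.98e-05). In skip1 induced samples it was at 31.2, 37.9, 37.1, 46.0 and 54.3, overlapping skip1 alone at 29.6, 42.6 and 33.0 (0.22, not called). Insig1, which retains the SREBP proteins and is itself a sterol-responsive gene, fell with skip1 (-0.75, SE 0.25, adjusted p = 0.0463). That call was lost without skip1 alone replicate 2 or 3 or skip1 induced replicate 1, 3, 4 or 5 (-0.78 to -0.60). Insig1 also lost its call under upper-quartile scaling (-0.62), quantile normalization (-0.38), equal totals (-0.28) and the depth covariate (-0.70). Its differences with skip2 (-0.26) and ΔN90 (-0.29) did not pass. Stard4, a cholesterol carrier, passed in none (-0.54 to -0.42).

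**Figure D3:**
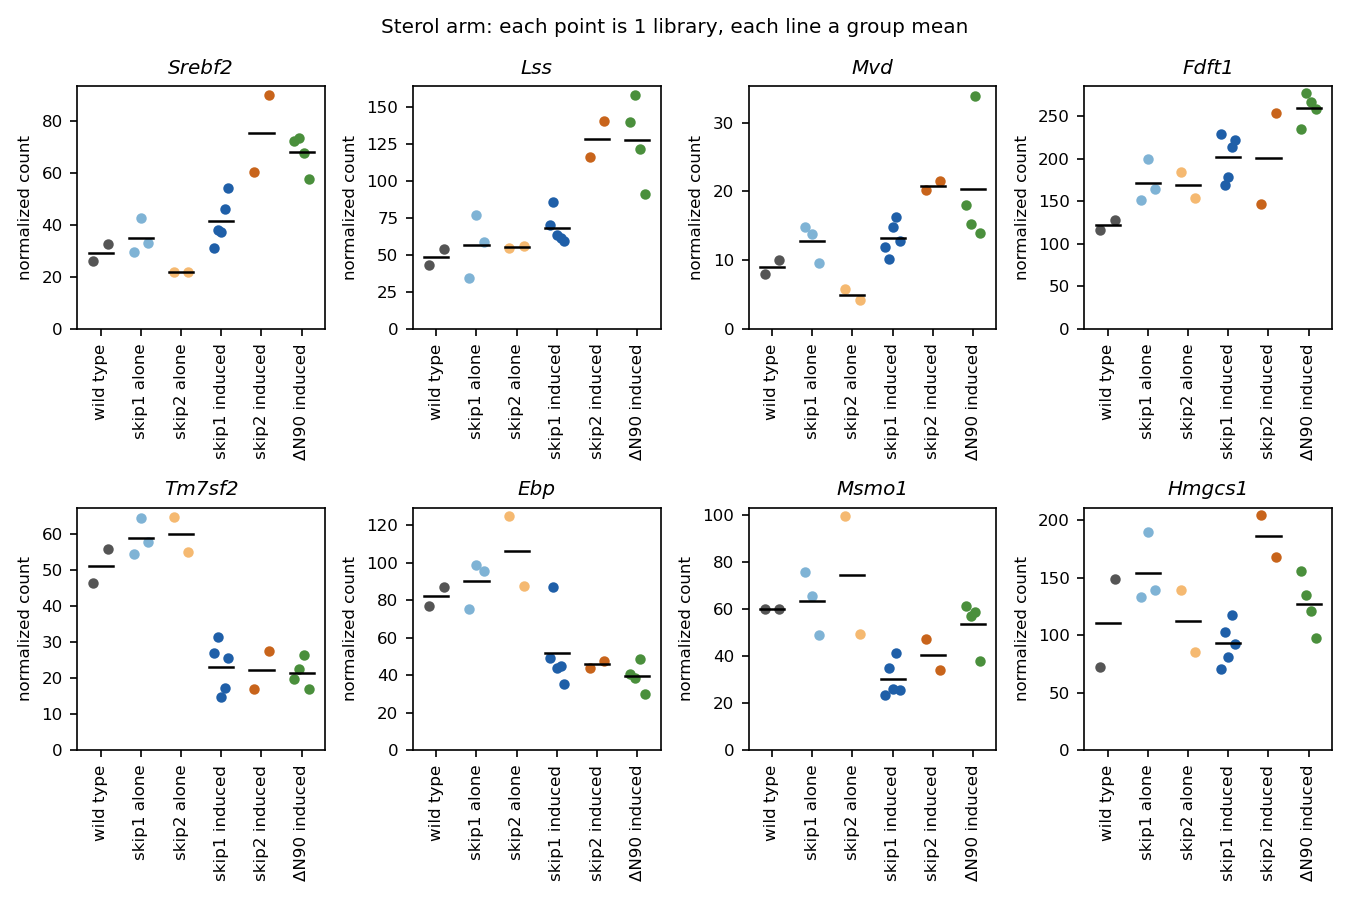
Normalized counts of 8 sterol genes, with 1 point per library and a line at each group mean. Srebf2, Lss and Mvd were higher in the skip2 and ΔN90 induced groups than in the other groups, and Tm7sf2 was low in all 3 induced groups.

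In the fatty acid arm no tested gene rose in the 3 comparisons. With skip1 2 of 12 fell, with skip2 3 fell and with ΔN90 4 fell, beside 8.18%, 8.42% and 19.9% of all genes that fell. The medians were -0.47, -0.40 and -0.61. Scaling to the same total gave 0 changed genes with skip1, 1 lower with skip2 and 3 higher and 3 lower with ΔN90. Quantile normalization gave 1 lower, 2 lower, and 2 higher and 4 lower. The hepatocyte markers fell beside these genes, 9 of 10 with skip1, 5 with skip2 and 8 with ΔN90. Their part in the result was not tested.

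Me1, malic enzyme, which supplies NADPH, was at 57.7 to 168 in the 7 non-induced libraries. It was at 25.3 and 39.4 in skip2 induced and 18.9, 12.3, 15.1 and 24.9 in ΔN90 induced samples, below all non-induced libraries. The differences were -1.70 (SE 0.45, adjusted p = 0.0135) with skip2 and -2.47 (SE 0.28, adjusted p = 7.70e-07) with ΔN90. In skip1 induced samples it was at 58.2, 134, 49.3, 57.0 and 65.1, within the spread of skip1 alone at 57.7, 103 and 168 apart from 2 libraries below it (-0.55, not called).

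Acacb, the carboxylase form tied to mitochondria, was at 52.0 to 105 in non-induced livers. It was at 35.5, 66.6, 16.7, 16.2 and 58.6 in skip1 induced, 20.2 and 23.8 in skip2 induced and 29.1, 32.6, 16.3 and 9.93 in ΔN90 induced samples. It fell with skip1 (-1.48, SE 0.42, adjusted p = 0.0196) and ΔN90 (-1.99, SE 0.36, adjusted p = 0.000182). With skip2 its groups did not overlap, but the difference of -1.60 (SE 0.57) had an adjusted p of 0.0618. Acly, ATP citrate lyase, the source of cytosolic acetyl-CoA, fell with skip1 (-0.998, SE 0.31, adjusted p = 0.036) and ΔN90 (-1.03, SE 0.27, adjusted p = 0.00493), and differed by -0.99 with skip2 (adjusted p = 0.133). With ΔN90 the call on Acly was lost under equal totals (-0.49), the depth covariate (-0.79) and against wild type only (-0.79). With skip1 it was lost under upper-quartile scaling (-0.865), quantile normalization (-0.66), equal totals (-0.525) and a fit of only the compared groups (-0.998). The highest induced value of Acly, 230 in skip1 induced replicate 2, lay inside the non-induced range of 170 to 377.

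Thrsp was at 243 and 462 with skip2 alone and at 29.9 and 17.3 in skip2 induced samples (-3.82, SE 1.07, adjusted p = 0.0193). It was at 50.3, 76.5, 33.9 and 11.9 in ΔN90 induced samples (-2.36, SE 0.68, adjusted p = 0.00917). Its non-induced libraries ran from 51.5 to 541, so the ΔN90 groups overlapped and the level in liver without induction was itself very uneven. With skip1 the difference of -1.54 did not pass.

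Elovl6, the elongase of palmitate, fell with skip2 (-1.53, SE 0.43, adjusted p = 0.0194), from 109 and 108 with skip2 alone to 40.5 and 33.95. Its values in wild type liver, 37.4 and 21.6, were as low as in the induced samples. Srebf1, Fasn, Acaca, Scd1, Elovl5, Fads1 and Fads2 passed in none of the 3 comparisons, with differences from -0.78 (Scd1, ΔN90) to 0.34 (Fads2, skip2). Fasn, fatty acid synthase, was at 337 to 1012 in non-induced livers and 169 to 655 in induced samples, and Scd1 at 1567 to 8391 and 637 to 4855. The spread of Scd1 without induction came from skip1 alone (1567 to 8391), since wild type (1646 and 2068) and skip2 alone (1799 and 1947) were narrow.

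These fatty acid calls rested on few libraries. With skip1 both calls were lost without skip1 alone replicate 2 or 3 or skip1 induced replicate 3 or 4, and that on Acly alone without skip1 induced replicate 5 (Acacb -1.56 to -1.24 and Acly -1.08 to -0.70). Acacb also lost its call without skip1 alone replicate 1 (-1.40). Leaving out skip1 induced replicates 1 and 2 together gave 5 lower in place of 2. These had the highest mean log2 level of the arm in their group, so leaving them out lowers it. Relative to the non-induced mean they stood at -0.33 and 0.23, against -1.20 to -0.68 in the others. With skip2 no call was kept without either skip2 alone library or skip2 induced replicate 1, and 1 was kept without skip2 induced replicate 2. The values without them were -4.28 to -3.36 for Thrsp, -1.65 to -1.40 for Elovl6 and -1.80 to -1.39 for Me1. With ΔN90 only Thrsp lost its call, without ΔN90 induced replicate 4 (-1.86).

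**Figure D4:**
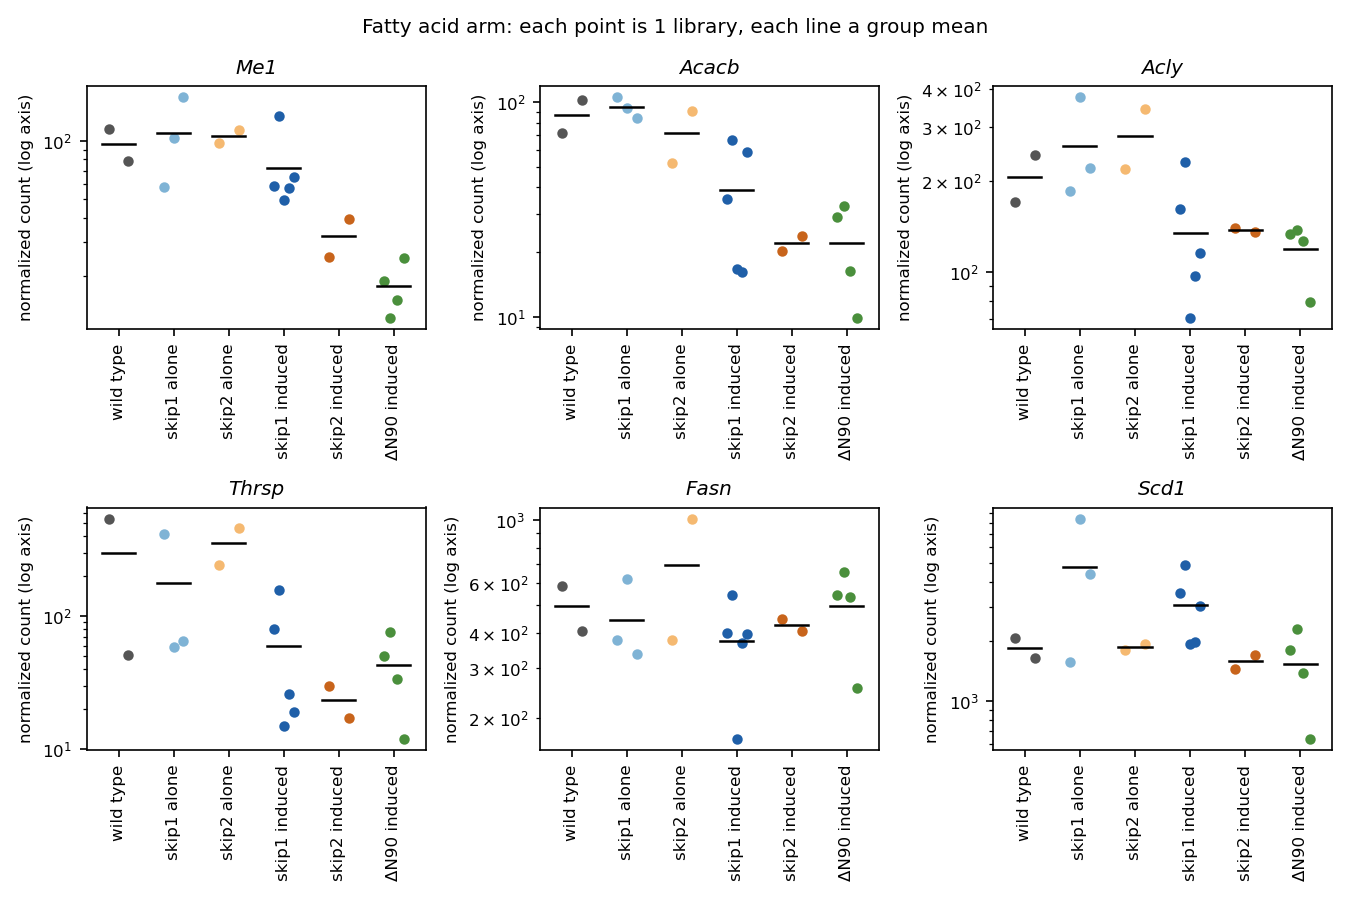
Normalized counts of 6 fatty acid genes on a log axis, with 1 point per library and a line at each group mean. Me1 and Acacb were low in the skip2 and ΔN90 induced groups, while Thrsp spread widely in the wild type and skip1 alone groups and Scd1 in the skip1 alone group.

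Pnpla3, an acyltransferase and lipase of lipid droplets, was too low to be tested with the other genes. It was listed at 0 and 0.831 in wild type, at 0, 1.15 and 1.07 with skip1 alone and at 0 in both skip2 alone libraries. It was at 2.15, 4.62, 5.57, 0.903 and 3.19 in skip1 induced, 4.14 and 2.38 in skip2 induced and 3.15, 7.14, 12.5 and 4.97 in ΔN90 induced samples. Values this low stand for a few reads. With no filter on low values it was higher with ΔN90 (2.47, SE 0.44, limma adjusted p = 0.000115) and did not pass with skip1 (1.26, adjusted p = 0.122) or skip2 (2.06, adjusted p = 0.0669).

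The induced groups were then compared with each other, to ask whether the β-catenin form makes a difference. Between skip1 and skip2 induced samples 1 sterol gene differed, Hmgcs1, lower with skip1 (-1.01, SE 0.28, adjusted p = 0.0492), where 3.53% of all genes differed, 3.09% higher and 0.44% lower with skip1. Its 5 skip1 induced libraries, given above, lay below the 204 and 168 of skip2. Of the 21 sterol genes 18 had a lower mean log2 value with skip1, and the median difference was -0.42, beside -0.03 over all genes. The share of all genes with a lower mean was not counted. Genes read from the same libraries are not independent, so the 18 cannot be read as separate results. Lss (-0.91, adjusted p = 0.0621), Srebf2 (-0.84, adjusted p = 0.057), Insig1 (-0.73), Sqle (-0.67) and Mvd (-0.64) also had groups that did not overlap and did not pass. With 5 against 2 libraries groups can separate by chance, and the share of all genes that did so was not counted. The count was 4 lower under quantile normalization, 3 under upper-quartile scaling and 0 with log2 depth as a covariate, where Hmgcs1 differed by -0.23. The skip2 induced libraries were the deepest, at 933196 and 815418 estimated reads against 412535 to 566750 in skip1 induced libraries. Depth and group therefore go together here, and that covariate cannot tell them apart. Hmgcs1 lost its call without either skip2 induced library or without skip1 induced replicate 1, 3 or 5 (-1.15 to -0.87). The count was 0 without either skip2 induced library or skip1 induced replicate 1 or 3, and 2 without skip1 induced replicate 2. In the fatty acid arm limma gave 0 of 12, and 2 at an unadjusted p under 0.05: Srebf1, lower with skip1 (-0.81), and Me1, higher (1.08).

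Between skip1 and ΔN90 induced samples Lss (-0.88, SE 0.22, adjusted p = 0.016), Msmo1 (-0.81, SE 0.23, adjusted p = 0.0484) and Srebf2 (-0.72, SE 0.19, adjusted p = 0.034) were lower with skip1, where 4.63% of all genes differed, 3.17% higher and 1.46% lower with skip1. The sterol median was -0.40, beside -0.02 over all genes. The count of 3 became 0 without ΔN90 induced replicate 1 or 2, and 1 without ΔN90 induced replicate 3 or skip1 induced replicate 1, 2 or 3. Lss was then at -0.83 to -0.77 and Srebf2 at -0.72 to -0.63 where their calls were lost, and Msmo1, whose call was also lost without skip1 induced replicate 5, at -0.87 to -0.73. Me1 was higher with skip1, at 49.3 to 134 against 12.3 to 24.9 with ΔN90 (1.92, SE 0.30, adjusted p = 0.000294), with no overlap between the groups, and kept its call under all alternatives run. It was the only fatty acid gene to differ.

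Between skip2 and ΔN90 induced samples limma gave 0 of 21 sterol and 0 of 12 fatty acid genes, where 3.03% of all genes differed, 0.576% higher and 2.46% lower with skip2. At an unadjusted p under 0.05 there was 1, Me1, at 25.3 and 39.4 with skip2 against 12.3 to 24.9 (0.84, 95% interval 0.03 to 1.65). The 95% interval of the difference ran from -0.55 to 0.61 for Lss and from -0.40 to 0.65 for Srebf2, and a p that missed the threshold does not show that these groups were alike.

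Whether the skip1 and skip2 inductions themselves differed was tested as 1 difference of differences. No member passed in limma, where 0.167% of all genes did, 0.137% higher and 0.0303% lower for the skip1 induction. At an unadjusted p under 0.05 there were 4 sterol genes, all lower for the skip1 induction: Mvd (-1.84, SE 0.50), Hmgcs1 (-1.48, SE 0.42), Srebf2 (-1.48, SE 0.36, adjusted p = 0.115) and Lss (-0.88, SE 0.40). In the fatty acid arm there was 1 of 12, Elovl6 (1.41, SE 0.53), near that background. A call with skip2 and none with skip1 is therefore not shown to differ for these genes.

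Livers that carried an isoform without induction were set against wild type liver. No member changed with skip1 alone or with skip2 alone by limma, where 0.0% and 0.0152% of all genes did. Of 21 sterol genes 19 and 18 had a higher mean log2 value than in wild type. Their median differences were 0.28 and 0.27, beside 0.01 and 0.03 over all genes, and those of the fatty acid arm 0.29 and 0.30. The share of all genes that were higher was not counted. The skip1 and skip2 inductions are measured from these levels, and the part of this in their falls was not tested. At an unadjusted p under 0.05 there were 2 with skip1 alone, Acat2 (0.80) and Fads1 (0.58), and 2 with skip2 alone, Elovl6 (1.90, SE 0.43, adjusted p = 0.411) and Acaca (0.85), all higher than in wild type. None of these passed after adjustment.

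Subtypes A and B were compared in the z-score table, which the authors named as holding differentially expressed genes. No source states the rule of that choice. If it drew on these libraries, many genes would pass such tests by selection, so a pass is not independent support. Its differences are counted in SDs of each gene and cannot be read as folds. The 11 members present were Tm7sf2, Nsdhl, Ebp, Sc5d and Dhcr7, all enzymes after lanosterol, and Acacb, Acly, Elovl5, Me1, Thrsp and Pnpla3. All 5 sterol genes had higher z-scores in subtype A than in B, where 61.1% of the genes of the table differed, 40.3% higher and 20.9% lower. Their median difference was 0.51, beside 0.19 over all genes of the table. Ebp was at 0.00, -0.38, -0.14 and -0.20 in subtype A and between -0.69 and -0.46, with a median of -0.60, in subtype B, with no overlap (0.40, SE 0.09, limma adjusted p = 0.00227). Dhcr7 was at 0.07, 0.00, 0.01 and 0.04 in subtype A and ran from -1.19 to -0.01 in subtype B (0.67, SE 0.23, adjusted p = 0.0195). Tm7sf2 (0.41), Nsdhl (0.63) and Sc5d (0.51) overlapped between the subtypes. Nsdhl lost its call without subtype A replicate 2 (0.57) or 4 (0.60), and Dhcr7 without subtype A replicate 1 (0.66).

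In the fatty acid arm 5 of 6 had a higher mean z-score in subtype A, and 2 of 6 passed the test. This share does not exceed the 40.3% of the genes of the table that passed as higher. Elovl5, an elongase of polyunsaturated fatty acids, was at 0.48, -0.05, 0.06 and 0.25 in subtype A and between -0.89 and -0.09 in subtype B (0.82, SE 0.28, adjusted p = 0.0205). Acacb was at 0.05, -0.24, -0.31 and -0.05 in subtype A and between -0.68 and -0.28 in subtype B (0.42, SE 0.12, adjusted p = 0.00942). Me1 (0.57), Acly (0.24), Thrsp (0.02) and Pnpla3 (-0.10) did not pass. The count that passed became 1 without subtype A replicate 1 or 4, where Elovl5 lost its call (0.72 and 0.80). It became 4 without subtype B replicate 1, where Me1 passed at 0.65. Of 9 hepatocyte markers with z-scores, 6 were also higher in subtype A, with a median difference of 0.29. So were all 4 endothelial markers (median 0.44) and the 1 macrophage marker (0.59), and the part of these markers was not tested.

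Against sgActin and YAPS127A, all 5 sterol genes and 5 of 6 fatty acid genes had lower z-scores in each subtype, where 97.3% of genes differed with subtype A (41.7% higher and 55.6% lower) and 99.6% with subtype B (44.1% higher and 55.6% lower). The sterol genes were at 1.21 to 2.44 in the control libraries and at -1.19 to 0.15 in the tumours, with median differences of -2.06 and -2.57 beside -1.995 and -2.46 over all genes of the table. These comparisons share the 3 control libraries, and nearly all genes of the table passed, so passing does not set these members apart. Pnpla3 went the other way. It was at -1.03, -1.08 and -1.39 in the control, at -0.18 to 0.39 in subtype A (1.34, not called) and at -0.52 to 3.26 in subtype B (1.43, SE 0.57, adjusted p = 0.023). That call was lost without control replicate 2 (1.48) or 3 (1.32), and by an exact permutation test (two-sided, adjusted p = 0.0729).

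**Figure D5:**
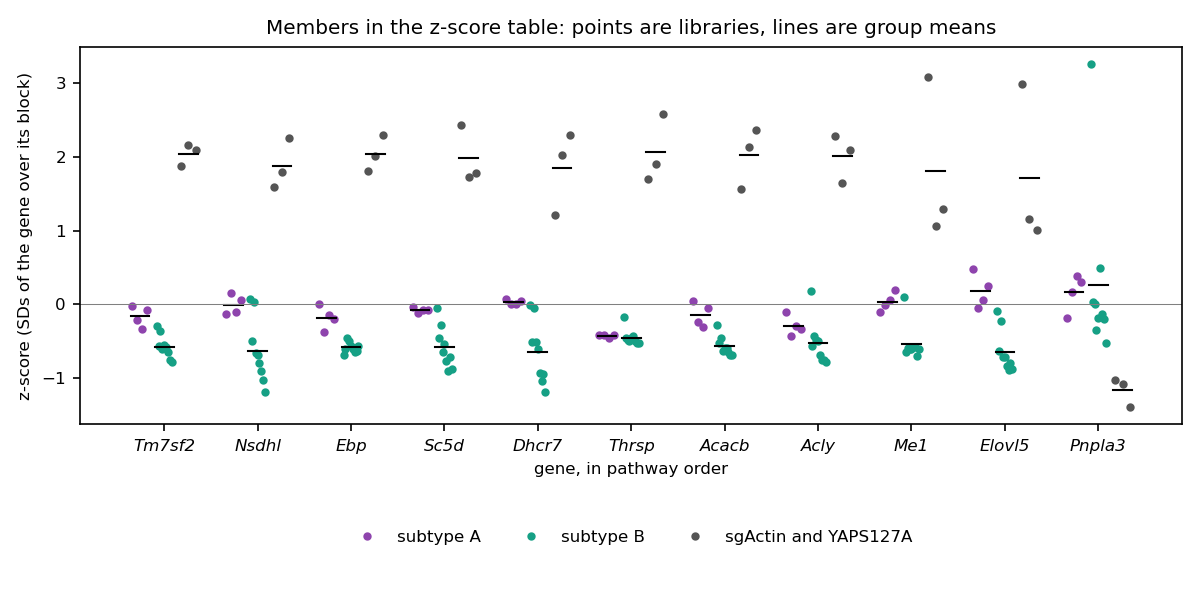
Z-scores of the 11 members in the z-score table, with 1 point per library and a line at each group mean for subtype A, subtype B and sgActin and YAPS127A. The control libraries lie above both subtypes for every gene but Pnpla3, where 1 subtype B library stands at 3.26.

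Genes that work around these pathways were followed in 6 lists. Their counts stand beside 6.55%, 6.52% and 17.6% of all genes that rose and 8.18%, 8.42% and 19.9% that fell with skip1, skip2 and ΔN90, and with so few genes 1 in a list is near that background. Of 8 further cholesterol synthesis genes tested, 0 changed with skip1, 1 rose with skip2 and 4 rose and 1 fell with ΔN90. Lbr, a second sterol C14 reductase, rose with skip2 (2.25, SE 0.47) and ΔN90 (1.41, SE 0.29), where Tm7sf2 fell. It was low, at a mean of 3.90 normalized counts with skip2 alone and 21.1 in skip2 induced samples. Por, the reductase that passes electrons to Cyp51 and Sqle, rose with ΔN90 (1.02, SE 0.36) and was lower in skip1 than in ΔN90 induced samples (-1.47). Cyb5r3, which passes electrons to the desaturases, fell with ΔN90 (-0.64).

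Of 13 regulators of SREBP processing and lipid sensing tested, none rose, while 2 fell with skip1, 1 with skip2 and 6 with ΔN90. Scap, the escort that carries SREBP proteins out of the endoplasmic reticulum, fell with skip1 (-1.33, SE 0.23) and ΔN90 (-1.31, SE 0.20). Nr1h3, the oxysterol receptor LXRα, fell with skip1 (-0.65). Prkaa2, a catalytic subunit of AMP-activated kinase, fell with skip2 (-1.17) and ΔN90 (-1.10). Ppargc1b (-1.45) and Insig2 (-1.02) fell with ΔN90. Of 11 genes of sterol uptake, transport and storage, 0 changed with skip1, 1 rose with skip2 and 4 rose and 1 fell with ΔN90. Scarb1, the HDL receptor, rose with skip2 (1.23, SE 0.29), Npc2, a lysosomal cholesterol carrier, rose with ΔN90 (1.12) and Abcg8, a biliary sterol exporter, fell with ΔN90 (-1.20). Npc1 was lower in skip1 than in skip2 induced samples (-0.95, SE 0.20).

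Of 10 genes that supply acetyl-CoA and NADPH, 3 fell with skip1, 1 with skip2 and 4 with ΔN90, and 2 rose with ΔN90. Acss2, acetyl-CoA synthetase, fell with skip1 (-1.54) and ΔN90 (-1.12), Slc25a1, the citrate carrier, with skip1 (-0.95) and ΔN90 (-1.08), and Idh1 with all 3 (-0.89, -1.13 and -1.21). Of 13 other genes of elongation, desaturation and activation, 0 rose and 3 fell with skip1, 1 rose and 3 fell with skip2 and 1 rose and 4 fell with ΔN90. Acsl1, a long-chain acyl-CoA synthetase, fell with all 3 (-1.26, -1.52 and -1.73). Scd2, a desaturase low in adult liver, rose with skip2 (3.62, SE 0.74) and ΔN90 (2.19, SE 0.47) from means of 3.11 and 4.81 normalized counts. These means lie below the minimum mean of 10, so Scd2 may have been tested only because it was higher elsewhere. Elovl3 was listed at 0 in every skip2 and ΔN90 induced library. Acsl4 was lower in skip1 than in skip2 (-1.38) and ΔN90 (-0.92) induced samples. Of 9 genes of triglyceride synthesis and lipid droplets, Gpam fell with skip1 (-0.75) and Agpat2 with ΔN90 (-0.76), and none changed with skip2.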

How the data were processed

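The authors deposited 2 tables. The submitters' processing notes list the mm10 build and the tools STAR, RSEM, DESeq2 and FastQC, without versions. The first table holds normalized counts, a signal per gene deposited by the authors for 14086 genes in 18 libraries. In each library 29.6% to 60.2% of the values above 0 were whole multiples of the value 1 read appeared to be worth (tolerance 0.001), too few to recover reads, so estimated reads are the column total over that value. The second holds z-scores, a score deposited by the authors for 1659 genes in 34 libraries. Its name calls the genes differentially expressed, and from the values it was scaled in 2 blocks. Only the block with the subtypes was used. The depth behind it is unknown. 

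Genes with a mean of at least 10 (6592) were tested as log2(value + 1) in R 4.3.3 by limma 3.58.1. The model had a mean for each of the 6 groups and a variance prior that follows expression level, and two-sided p-values were adjusted by Benjamini-Hochberg over all genes. Z-scores were tested with limma without a trend over 16 libraries. The tests were checked on simulated data. Members and lists were chosen with earlier results of these data known. Per comparison and arm, full values were given for up to 6 genes that passed, by size of difference, or otherwise the 3 largest, and up to 4 genes were named per list. Coordinates and promoter windows are RefSeq's on GRCm38.p6, and exon lengths GENCODE's. Alternatives were a pseudocount of 5, no filter, upper-quartile, quantile and equal-total scaling, only the compared groups, log2 depth as a covariate, each replicate left out, skip1 induced replicates 1 and 2 left out, wild type only as the ΔN90 control, and an exact permutation test for z-scores.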

Additional observations from a re-analysis of the deposited data

Results flagged for a closer look

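Over 90 groups of 4 to 10 libraries, 10 values stood apart from the rest of their group by Dixon's criterion, which chance gives in about 1 group in 20. Skip1 induced replicate 2 was the highest of its group for Nsdhl (34.2 normalized counts, against 25.1 to 27.1 in the other libraries), Ebp (87.0, against 35.1 to 49.5), Elovl5 (115.6, against 68.1 to 79.6) and Me1 (133.5, against 49.3 to 65.1). ΔN90 induced replicate 4 was the lowest of its group for Insig1 (115.2, against 234.6 to 258.8). Subtype B replicate 1 was the highest of its group for Acly (z-score 0.18, against -0.78 to -0.43), Me1 (0.10, against -0.70 to -0.58), Thrsp (-0.17, against -0.52 to -0.43) and Pnpla3 (3.26, against -0.52 to 0.50). Subtype A replicate 3 was the lowest of its group for Thrsp (-0.45, against -0.42 in the other 3 libraries).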

How the results depend on the processing

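No paired analysis was possible because the labels number no replicates, and the numbers used here only follow accession order. Of 914 alternative values for the 63 member differences that passed the test, 782 kept direction and call, 132 lost the call and none reversed. Of the 63, 36 kept their call in every alternative. These totals pool both tables and make the count table look more stable than it was, since most calls on z-scores were kept. In the count table only these calls were kept in every alternative: Tm7sf2 with skip1, and Mvd and Srebf2 with skip2. With ΔN90 they were Mvd, Fdft1, Lss, Tm7sf2, Ebp, Srebf2, Acacb and Me1, and between skip1 and ΔN90 induced samples Me1. The cause of the changes below was not tested. With skip1 against skip1 alone the 2 fatty acid genes were 1 under upper-quartile scaling, quantile normalization and a fit of only the compared groups, 0 under scaling to equal totals and 5 without skip1 induced replicates 1 and 2. With skip2 the 5 sterol genes were 9 under equal totals, and the 3 fatty acid genes were 1 under equal totals and the depth covariate and 5 in a fit of only the compared groups. With ΔN90 the 10 sterol genes were 6 with the depth covariate, and the 4 fatty acid genes were 2 against wild type only. Between skip1 and skip2 induced samples the 1 sterol gene was 0 without a filter and with the depth covariate, 3 under upper-quartile scaling and 4 under quantile normalization, and the 0 fatty acid genes were 1 under quantile normalization and without skip1 induced replicates 1 and 2. Between skip1 and ΔN90 induced samples the 3 sterol genes were 1 without a filter and without those replicates, and the 1 fatty acid gene was 2 without them. Leaving out 1 library at a time gave 2 to 8 sterol and 0 to 3 fatty acid genes with skip1, 2 to 5 and 0 to 1 with skip2, 8 to 11 and 3 to 6 with ΔN90, 0 to 2 sterol genes between skip1 and skip2 induced, 0 to 4 between skip1 and ΔN90 induced, 4 to 5 sterol and 1 to 4 fatty acid genes between subtypes A and B, and 5 to 6 fatty acid genes for subtype B against its control. Values that reversed had not passed the test: between skip2 and ΔN90 induced samples with the depth covariate Hmgcs1 (-0.29), Nsdhl (-0.10), Acly (-0.45), Me1 (-0.17) and Thrsp (0.55), and Thrsp in skip2 alone against wild type without wild type replicate 2 (-0.69, and 2.68 without replicate 1). Over all genes, calls between skip1 and skip2 induced samples fell from 204 higher and 29 lower to 9 and 4 with the depth covariate, and between skip2 and ΔN90 from 38 and 162 to 0 and 0 (239 at an unadjusted p under 0.05). Under equal totals the splits of all genes were 1643 higher and 192 lower with skip1 (432 and 539 otherwise), 1474 and 226 with skip2 (430 and 555) and 3053 and 543 with ΔN90 (1158 and 1313). Depth of at most 933196 estimated reads limits genes such as Mvd and Pnpla3 most.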
